A study of Mus musculus with 6 samples.

Results

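The acid-sensing ion channel genes Asic1, Asic2, Asic3 and Asic4 were followed in the substantia nigra of mice fed ad libitum or kept on intermittent fasting. They were taken by symbol from a table of 19251 genes, and all 4 were found and passed the filter on low counts. The family was chosen by the difference of Asic4 between diets in these same libraries. This difference was one of the largest among genes lower under fasting at an edgeR adjusted p below 0.05. The members' differences between diets are therefore a description, and nothing is tested with them. All C57BL/6 mice of both groups carried rAAV-A53T-aSynuclein, a recombinant adeno-associated virus carrying a mutant alpha-synuclein, used to model Parkinson's disease, and no group without the vector was part of this comparison. The ad libitum group had free access to food, and the fasting group went without food for 24 hours on 3 days a week. Both regimens began 2 weeks after surgery and lasted 10 weeks, and both groups were moved between cages in the same way. Each group had 3 libraries of polyadenylated RNA. The sources used here give neither the promoter of the vector, the age and sex of the mice nor the interval between the last fast and collection. Nothing in the labels ties libraries to separate animals, so errors and p-values measure only the spread between these libraries, which may be technical. Values listed for a diet are in the order of its replicates 1, 2 and 3.

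Acid-sensing ion channels are sodium-permeable channels that open when the fluid outside the cell turns acidic. They belong to the degenerin and epithelial sodium channel superfamily and assemble from several subunits. Asic1 and Asic2 encode the main subunits of central neurons, where the Asic1 subunit sets most of the current evoked by acid and the Asic2 subunit tunes it and helps to place it at synapses. Asic3 is best known from sensory neurons. The Asic4 product does not form an acid-gated channel on its own and can lower the amount of the Asic1 subunit at the cell surface.

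The 4 genes are related in sequence but distinct enough for their reads to be told apart. Between the longest complete coding sequences of the 4 genes (GENCODE M21, GRCm38), identity over aligned bases ran from 60.7% for Asic2 and Asic3 to 66.9% for Asic1 and Asic2. The longest run without a mismatch that Asic4 shared with another member had 22 bases, in common with Asic3, and is shown because it is the place where reads of Asic4 would be hardest to assign within the family: CCAGACTTTTGTGTCCTGCCAG. Of the words of 31 bases in all annotated transcripts, 0.190% of those of Asic1 and 0.0473% of those of Asic2 also occurred in another gene, and 0 of the 2726 words of Asic4 and 0 of the 2504 words of Asic3 did. Asic4 overlaps 1 annotated gene, Gm37264, on the opposite strand, which was at a mean of 0.408 CPM (counts scaled to a common library size, here with TMM factors). Asic2 overlaps 6 annotated genes, 5 on the opposite strand and 1 on the same strand, the pseudogene 1700071K01Rik. Of these 6, 5530401A14Rik on the opposite strand was measured, at a mean of 0.427 CPM, and the others were not analysed here. The sources used here do not say whether the counting used strand.

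Total counts ran from 42990234 to 48179706 per library, and the family held 6041 to 6942 of them. Depth therefore limited only Asic3, which had 15 to 32 counts in each library. Dopaminergic markers were measured in every library, with the 7 genes summing to between 504 and 1481 CPM and overlapping between diets. Ad libitum replicate 2 stood apart, with 3 cholinergic markers summing to 77.0 CPM against 2.08 to 7.35 CPM in the other 5 libraries and 6 hypothalamic markers summing to 526 CPM against 4.87 to 148 CPM. Ad libitum replicate 3 had the highest dopaminergic sum, 1481 CPM against 504 to 1029 CPM in the other 5 libraries, and the highest sum of 3 red blood cell markers, 1018 CPM against 145 to 386 CPM.

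Asic4 (ENSMUSG00000033007) was the member with the largest difference between diets. Its level was 19.8, 24.5 and 24.5 CPM in the ad libitum libraries and 5.59, 9.20 and 6.20 CPM in the fasting libraries. The groups did not overlap, and even the lowest ad libitum library was 2.15-fold above the highest fasting library. The means were 22.9 ± 2.71 CPM ad libitum and 7.00 ± 1.93 CPM under fasting (SD, n = 3). Its log2 fold change, fasting minus ad libitum, was -1.71 (SE 0.20, 95% interval -2.20 to -1.23), or 3.28-fold lower under fasting. With an edgeR adjusted p of 0.0422, it was the only member of the 4 called at an adjusted p below 0.05. Of all 19109 genes tested, 0.497% were called in either direction and 0.351% were called lower under fasting. The call was not kept without ad libitum replicate 2 (log2 fold change -1.67, edgeR adjusted p = 0.0653), ad libitum replicate 3 (-1.66, 0.115), fasting replicate 1 (-1.58, 0.246) or fasting replicate 3 (-1.64, 0.287), or without robust shrinkage (edgeR adjusted p = 0.0503). In the same order, those fits called 45, 1, 0, 0 and 9 genes over the whole table, against 95 in the main analysis. DESeq2 also called Asic4 (log2 fold change -1.71, DESeq2 adjusted p = 9.7e-14), as it did 7.4% of all genes for which it gave an adjusted p. The size and direction of the difference changed little in these fits.

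Asic2 (ENSMUSG00000020704) lay on the other side of zero from Asic4. The ad libitum libraries held 53.4, 38.9 and 39.4 CPM and the fasting libraries 70.1, 56.2 and 68.0 CPM. Here too the groups did not overlap, but the gap was narrow, with ad libitum replicate 1 at 53.4 CPM just under fasting replicate 2 at 56.2 CPM. The means were 43.9 ± 8.23 CPM and 64.8 ± 7.51 CPM (SD, n = 3), and the log2 fold change was 0.56 (SE 0.15, 95% interval 0.20 to 0.92), 1.47-fold in favour of fasting. Asic2 was not called by edgeR (adjusted p = 0.115). It was called by DESeq2 (log2 fold change 0.56, adjusted p = 0.00844) and by edgeR without ad libitum replicate 1 (0.72, adjusted p = 0.0223), the ad libitum library nearest to the fasting ones. Both settings called far more genes than the 95 of the main analysis. DESeq2 called 1395 genes (7.4%), and edgeR without ad libitum replicate 1 called 1187. Groups that do not overlap, as in these 2 members, were found for 27.5% of all tested genes.

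Asic1 (ENSMUSG00000023017), which encodes the main acid-gated subunit of central neurons, varied little. Its levels were 72.9, 79.2 and 72.8 CPM on free feeding and 64.4, 73.6 and 67.3 CPM on fasting. The groups overlapped, since fasting replicate 2 was above ad libitum replicates 1 and 3. The means were 75.0 ± 3.69 and 68.4 ± 4.72 CPM (SD, n = 3), with a log2 fold change of -0.13 (SE 0.07, 95% interval -0.29 to 0.03). Asic1 was not called by edgeR (adjusted p = 0.330).

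Asic3 (ENSMUSG00000038276), the sensory neuron subunit gene, was close to the limit of detection. The ad libitum libraries had 31, 32 and 15 counts and the fasting libraries 23, 30 and 26. The corresponding levels of 0.656, 0.661 and 0.321 CPM and of 0.523, 0.694 and 0.554 CPM overlapped. The log2 fold change of 0.11 (SE 0.33, 95% interval -0.68 to 0.90) changed sign when ad libitum replicate 3 (-0.16) or fasting replicate 2 (-0.02) was left out, so a direction cannot be read at this depth. Among 5 measured markers of peripheral sensory neurons the summed level was also low, at 5.95 to 19.9 CPM ad libitum and 8.80 to 13.8 CPM under fasting.

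**Figure D1:**
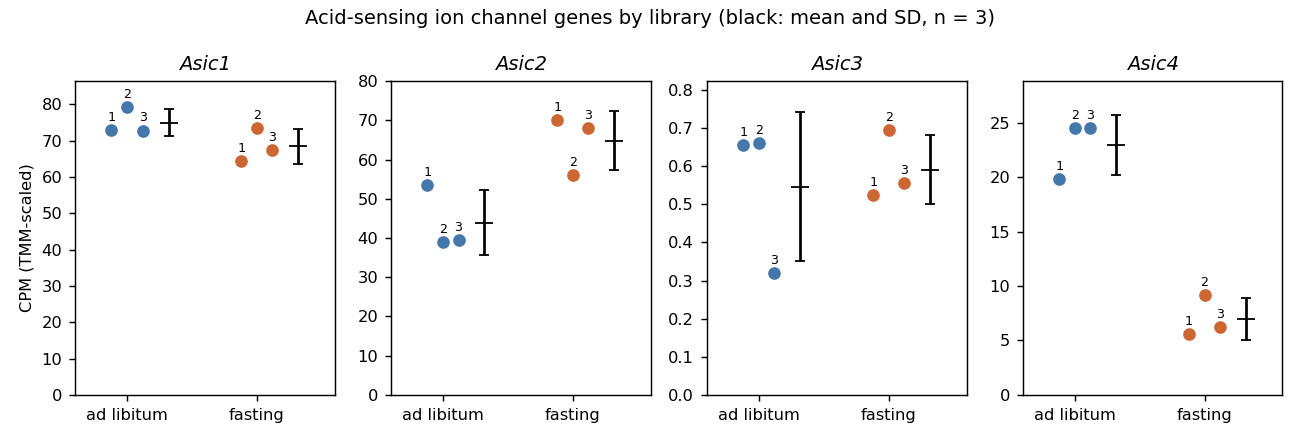
Levels of Asic1, Asic2, Asic3 and Asic4 in CPM (linear axes from 0, one scale per gene) in the 3 ad libitum and 3 fasting libraries, numbered by replicate, with the mean and SD in black. The ad libitum libraries lie above the fasting libraries for Asic4 (19.8 to 24.5 against 5.59 to 9.20 CPM) and below them for Asic2 (38.9 to 53.4 against 56.2 to 70.1 CPM), while Asic1 and Asic3 overlap.

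Asic2 and Asic4 also varied in opposite directions inside each diet group. Among the ad libitum libraries, replicate 1 had the lowest Asic4 level and the highest Asic2 level. Among the fasting libraries, replicate 2 had the highest Asic4 level and the lowest Asic2 level. In both cases the library in question was the one of its group nearest to the other diet for these genes.

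To compare the genes with each other, levels were divided by the mean length of each gene's protein-coding transcripts. On this scale of CPM per kb, the ad libitum order was Asic1 at 25.3 ± 1.24, Asic2 at 14.3 ± 2.68, Asic4 at 8.94 ± 1.06 and Asic3 at 0.317 ± 0.113 (SD, n = 3), and no neighbours in that order overlapped. Under fasting Asic1 was at 23.1 ± 1.59 and Asic2 at 21.1 ± 2.45 CPM per kb, and these neighbours overlapped, with Asic4 at 2.73 ± 0.753 and Asic3 at 0.343 ± 0.0527 well below them. With the longest annotated transcript as the length, Asic1 under fasting was at 16.6 and Asic2 at 18.8 CPM per kb, so the order of these 2 genes under fasting depends on the length taken. Among 19185 genes with a length, the mean level per kb of Asic1 over all libraries was at the 79.3rd percentile, that of Asic2 at the 72.7th, that of Asic4 at the 49.9th and that of Asic3 at the 11.6th.

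The sum over the family was nearly the same in all libraries although its makeup was not. The 4 genes together were at 50.1, 49.3 and 47.1 CPM per kb in the ad libitum libraries and 47.0, 47.1 and 47.6 CPM per kb in the fasting libraries. These sums overlapped between diets. Asic4 made up 15.4%, 19.4% and 20.3% of the sum in the ad libitum libraries and 4.64%, 7.61% and 5.08% in the fasting libraries. Asic2 made up 34.8%, 25.7% and 27.3% ad libitum and 48.6%, 38.9% and 46.6% under fasting. The share of Asic1 was similar, at 51.8% ± 2.55 and 48.8% ± 3.41 (SD, n = 3).

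**Figure D2:**
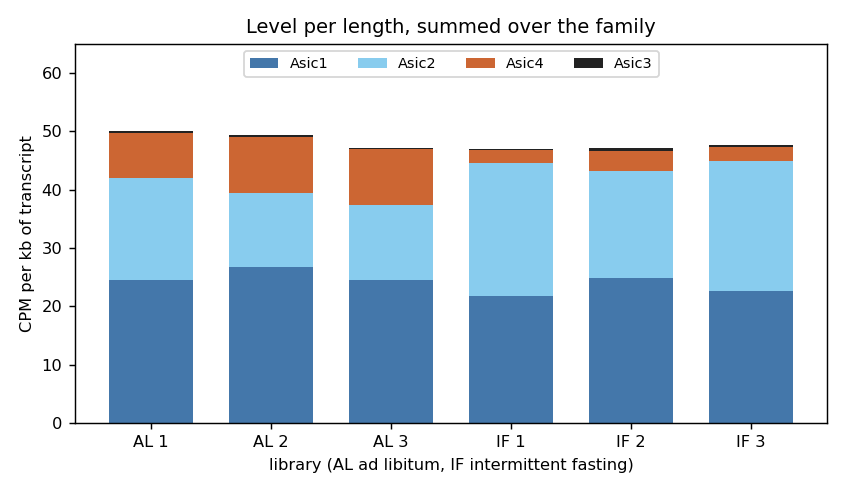
Level per kb of transcript, in CPM per kb, stacked over Asic1, Asic2, Asic4 and Asic3 in each of the 3 ad libitum (AL) and 3 intermittent fasting (IF) libraries. The height of the stack stays between 47.0 and 50.1 while the Asic4 part is smaller and the Asic2 part larger in the fasting libraries.

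Ratios within a library do not depend on depth or scaling. Per unit of length, there were 0.314, 0.358 and 0.389 Asic4 counts for each Asic1 count in the ad libitum libraries, against 0.101, 0.145 and 0.107 in the fasting libraries. The Asic2 to Asic1 ratio was 0.709, 0.475 and 0.524 ad libitum and 1.05, 0.738 and 0.977 under fasting. Neither ratio overlapped between diets. The ratio shows that the genes differed unequally, not which of them stayed the same.

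**Figure D3:**
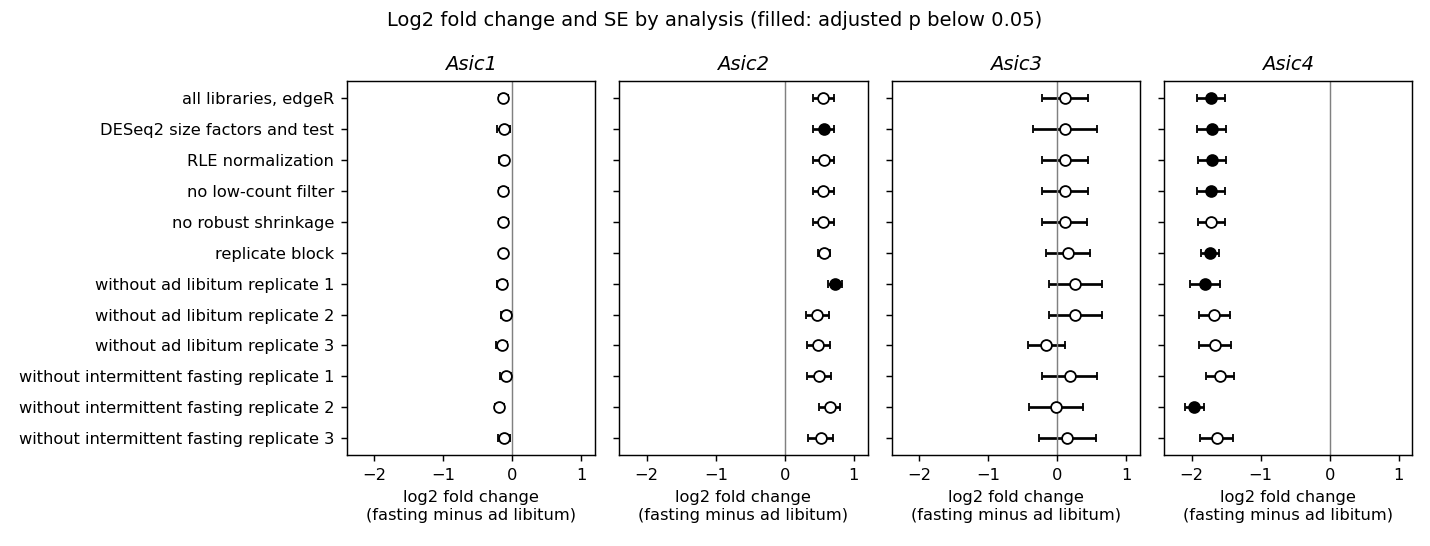
Log2 fold change (fasting minus ad libitum, with its SE) of each member in the analysis of all libraries and under 11 other settings, with filled points where the adjusted p was below 0.05. Asic4 stays between -1.96 and -1.58 and Asic2 between 0.47 and 0.72, whereas Asic3 lies on both sides of zero.

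Several cell type markers moved with Asic4. In bulk tissue, fewer cells of a type and less RNA per cell cannot be told apart. For mature oligodendrocytes, which make myelin, the log2 fold changes of the 7 markers were all negative. Their median was -0.57 against -0.005 over all tested genes, and edgeR called 0 of them, with 7 at an unadjusted p below 0.05, a cut that 20.4% of all tested genes passed. Their summed level was 13394 to 18246 CPM ad libitum and 9466 to 11874 CPM under fasting, and without ad libitum replicate 2 the median was -0.38. The 6 microglial markers summed to 292 to 408 CPM ad libitum and 236 to 241 CPM under fasting. Their log2 fold changes were all negative with a median of -0.60, and edgeR called 0 of them, with 6 at an unadjusted p below 0.05. The 5 markers listed for oligodendrocyte precursors summed to 812 to 882 CPM and 704 to 725 CPM, but they differed among themselves. Olig1 and Olig2, which mature oligodendrocytes also express, had log2 fold changes of -0.49 and -0.62, Cspg4 was at -0.27 and Ptprz1 at -0.13, while Pdgfra, a receptor gene that marks precursors, was at -0.03 with overlapping groups. None of these markers was at 0 CPM in any library. The 8 general neuronal markers overlapped between diets, at 5034 to 6685 CPM and 5927 to 6269 CPM. The sums of the 3 GABA neuron markers overlapped too, at 1139 to 1370 CPM and 935 to 1251 CPM. Their log2 fold changes were -0.41 for Gad1, -0.34 for Slc32a1 and -0.02 for Gad2, and Slc32a1, the vesicular GABA transporter gene, did not overlap between diets. The 2 pituitary markers measured summed to at most 1.94 CPM. Of the other marker lists, only the 5 interneuron genes had sums that did not overlap. These were 219 to 247 CPM ad libitum and 260 to 280 CPM under fasting. Each of the 5 genes overlapped on its own, with 3 negative and 2 positive log2 fold changes and a median of -0.10. Calb2 had the largest rise in mean, from 105 to 147 CPM. The dopaminergic, cholinergic, hypothalamic, glutamate neuron, cortical, sensory neuron, astrocyte, endothelial and red blood cell sums overlapped. The astrocyte sums did so narrowly, at 2672 to 3593 CPM and 2346 to 2673 CPM. Their markers had 5 negative and 1 positive log2 fold changes, and Gfap (-1.51), Aqp4 (-1.01) and Aldh1l1 (-0.13) did not overlap.

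Asic4 was then set against the oligodendrocyte, precursor, neuronal and GABA neuron sums, a measure chosen after the values were seen. The microglial sums, which also did not overlap between diets, were not used as a scale. Per 1000 CPM of the oligodendrocyte markers there were 1.48, 1.34 and 1.83 CPM of Asic4 in the ad libitum libraries, compared with 0.591, 0.775 and 0.611 CPM in the fasting libraries. The groups did not overlap on this scale either, and the ratio of the means was 2.35. The ratio of the means was 2.73 (ad libitum over fasting) relative to precursor markers, 3.55 relative to neuronal markers and 2.71 relative to GABA neuron markers. The part of cell makeup in the Asic4 difference was not tested.

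The genes whose pattern was most like Asic4 were found by Pearson correlation of log2 CPM over the 6 libraries among 15552 genes of at least 1 CPM. These were Myh14, a non-muscle myosin heavy chain gene (r = 0.9997), Gprc5b, an orphan receptor gene (0.998), the transcript 3110082J24Rik (0.997), Ugt8a, whose enzyme makes myelin galactolipids (0.997), and Serpinb1a, a protease inhibitor gene (0.997). Since the diet contrast dominates these values, likeness over 6 libraries mostly restates it, and 372 genes had an r above 0.95. Ad libitum libraries held 143, 178 and 159 CPM of Ugt8a and fasting libraries 58.1, 83.0 and 61.2 CPM. For Myh14 the levels were 112, 120 and 119 CPM against 76.4, 87.8 and 78.8 CPM. In both genes, as in Asic4, replicate 1 was the lowest ad libitum library and replicate 2 the highest fasting library. These libraries were also the ones nearest to the other diet in the chi-square comparison of library pairs. Ad libitum replicate 1 was nearer to each fasting library (28.693 to 30.954) than to replicates 2 (77.559) and 3 (45.363) of its diet. Ad libitum replicate 3 was nearer to fasting replicate 2 (30.331) than to its own group. Ad libitum replicate 2 was nearest to ad libitum replicate 3 (42.816). The fasting libraries were nearest to each other (8.173 to 19.561). The spread within the ad libitum group thus overlapped that between diets, which limits every diet contrast here. After each diet's mean was subtracted, r was 0.9997 for Myh14 and 0.963 for Ugt8a, and only 1 of the 5 genes was still among the 5 most like.

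**Figure D4:**
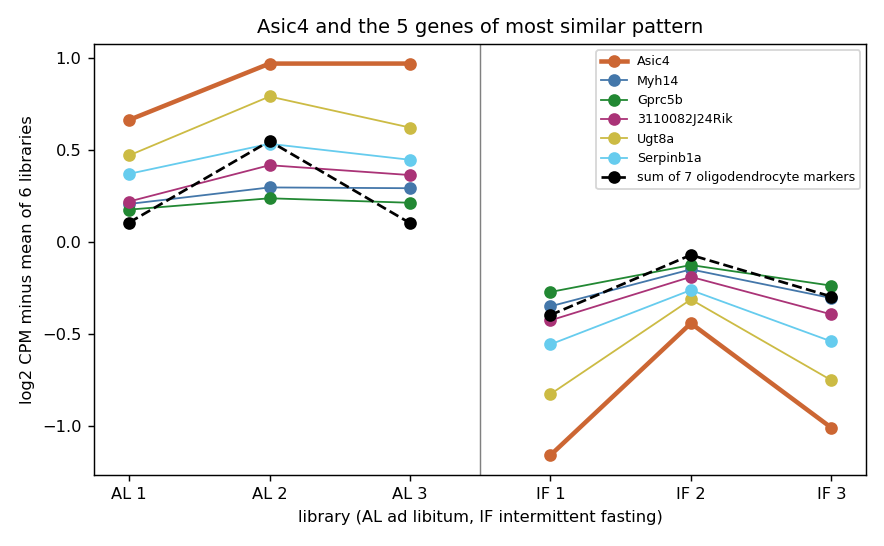
Log2 CPM minus its mean over the 6 libraries for Asic4, the 5 genes of most similar pattern and the summed level of 7 oligodendrocyte markers, by library (AL ad libitum, IF intermittent fasting), with lines joining libraries of one diet only to guide the eye. Each profile is higher in the 3 ad libitum than in the 3 fasting libraries, and Asic4 has the widest range of those drawn.

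The patterns most like the other members involved other genes. For Asic2 they were Bicdl1, a dynein adaptor gene (r = 0.995), Ncapd3, a condensin subunit gene (0.994), Ptprs, a receptor tyrosine phosphatase gene (0.992), Pkib, an inhibitor of protein kinase A (0.991), and Phka2, a phosphorylase kinase subunit gene (0.991), with log2 fold changes from 0.15 to 0.61 and none called. For Asic1 they were Edem2 (0.994), D7Ertd443e (0.992), Pdia6 (0.992), Capns1 (0.990) and Atp5j2 (0.989), with log2 fold changes from -0.41 to -0.11 and none called. Those nearest to Asic3, led by Polr1h (0.995) and Nosip (0.981) and followed by Tma7 (0.967), Tmem14a (0.966) and Mapk1ip1 (0.966), rest on its few counts.

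Genes that work around these channels were read from 6 lists of 65 genes in all. Of these, edgeR tested 57 and called 0, with 18 (31.6%) at an unadjusted p below 0.05 against 20.4% of all tested genes. DESeq2 also gave an adjusted p for 57 of the listed genes, but not for the same set. It called 11 of them, of which 4 were higher and 7 lower under fasting. DESeq2 called 7.4% of all genes for which it gave an adjusted p. The epithelial sodium channel genes belong to the same superfamily. Of them, Scnn1a was measured, at 3.93 CPM ad libitum and 3.63 CPM under fasting (log2 fold change -0.11, edgeR adjusted p = 0.890). Its direction was not stable, with a log2 fold change of -0.46 without ad libitum replicate 2, 0.13 without replicate 3 and 0.05 without replicate 1 of the same diet. Asic5 was not found by symbol among the 19251 genes and was not analysed here.

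Of 14 genes for binding partners and regulators of the channels, 13 were tested and 0 called by edgeR, 1 of them at an unadjusted p below 0.05. Their median log2 fold change was -0.17, and 0.01 without ad libitum replicate 2. The gene of smallest p was Actn4, an actin crosslinker, at 95.1 ± 3.77 and 84.8 ± 3.05 CPM (log2 fold change -0.17, edgeR adjusted p = 0.164). Pick1, whose scaffold protein binds the Asic1 and Asic2 subunits and which was named after its values were seen, was at 42.5, 38.1 and 40.1 CPM ad libitum and 43.9, 42.7 and 42.4 CPM under fasting. Stoml3, a stomatin relative known to tune these channels in sensory neurons, was not tested by edgeR for its low counts. It had 0, 2 and 3 counts ad libitum and 49, 3 and 56 under fasting, was called by DESeq2, and was likewise named after its values were seen.

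The neuropeptides known to modulate acid-sensing channels come from the genes Npff, Npvf and Pdyn, and edgeR called 0 of 3, with 1 at an unadjusted p below 0.05. Their median log2 fold change was -0.01, and 0.86 without ad libitum replicate 2. Npvf, a gene of hypothalamic neurons, had 0, 3 and 0 counts in the ad libitum libraries against 197, 56 and 337 in the fasting libraries (edgeR adjusted p = 0.0599), and it was called by DESeq2. The hypothalamic markers summed to 31.3, 526 and 4.87 CPM on free feeding and to 116, 148 and 144 CPM on fasting, and the part of the dissected tissue in the Npvf values was not tested.

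Among 10 other proton-sensitive receptors and channels tested, 0 were called by edgeR and 3 had an unadjusted p below 0.05, with a median log2 fold change of -0.02 that lay on either side of zero as single libraries were left out. Trpv1, the receptor for heat, capsaicin and acid, came nearest, with 3, 4 and 9 counts ad libitum and 44, 27 and 42 under fasting (log2 fold change 2.87, SE 0.43, edgeR adjusted p = 0.0542). DESeq2 called Trpv1 higher and Hvcn1, a proton channel gene, lower under fasting.

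Acid and bicarbonate transporters and carbonic anhydrases set the pH to which the channels respond. Of 16 transporters tested, 0 were called by edgeR and 7 had an unadjusted p below 0.05, with 10 negative and 6 positive log2 fold changes and a median of -0.19, which was -0.12 without ad libitum replicate 3. Slc16a1, which carries lactate and ketone bodies with protons, was at 60.7 ± 5.21 CPM ad libitum and 46.3 ± 1.73 CPM under fasting (log2 fold change -0.39, edgeR adjusted p = 0.0675). Of 14 carbonic anhydrases tested, 0 were called by edgeR and 6 had an unadjusted p below 0.05. Their median was -0.37, but it was -0.11 when ad libitum replicate 2 was left out, -0.22 when replicate 3 of that diet was, and -0.19 with the replicate block. Car2, the cytosolic enzyme that is abundant in oligodendrocytes, was at 326, 367 and 281 CPM ad libitum and 175, 223 and 181 CPM under fasting (log2 fold change -0.75, edgeR adjusted p = 0.0630). DESeq2 called 3 transporters lower (Slc16a1, Slc4a2 and Slc9a9) and 4 carbonic anhydrases, Car2, Car13 and Car14 lower and Car9 higher.

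**Figure D5:**
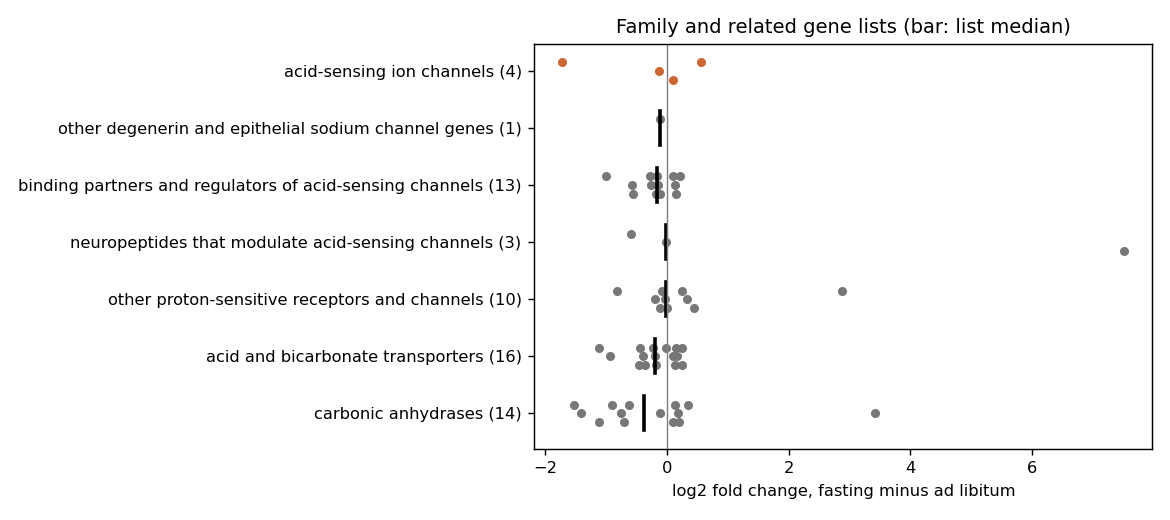
Log2 fold change (fasting minus ad libitum) of the 4 acid-sensing ion channel genes in the top row and of each tested gene of the 6 related lists in grey, with the number of genes in brackets and a bar at each related list's median. The medians of the related lists lie between -0.37 and -0.01, and Asic4 at -1.71 lies to the left of all genes of these lists.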

How the data were processed

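The data are a single deposited table of estimated counts for each gene, with whole numbers left unscaled across the 6 libraries. The submitters' processing notes name Salmon, DESeq2 1.40.2 and GRCm39 (mm39), but neither the role of each tool, the annotation release nor the rounding. Libraries were made with a directional kit, per the labels' protocols. Rounding changed 0 values, and no sample column went unused.

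Genes were filtered with filterByExpr (19109 of 19251 kept), scaled with TMM and tested with edgeR 4.0.16 (R 4.3.3; quasi-likelihood, two-sided) with robust shrinkage, no covariate and Benjamini-Hochberg adjustment over all genes tested. Calls were made at an adjusted p below 0.05. Each SE was derived from the log2 fold change and the F statistic. DESeq2 1.42.0 (run without the filter), RLE scaling, no filter, no robust shrinkage, a replicate block and leaving out each library were alternatives. The scripts were tested on simulated data. Likeness used log2 CPM with a prior count of 2. Lengths and sequences came from GENCODE M21 on GRCm38, another build, so no coordinates are given. 19185 gene IDs matched it.

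The members and gene lists were chosen with earlier results of these data known. Beside the members, named genes were the called genes of each list, or the 1 of smallest p, and the 5 genes most like each member. The genes that DESeq2 called, Pick1 and Stoml3 were named after their values were seen. With 3 libraries per diet the smallest exact permutation p is 0.1. One sequence comparison is not reported here.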

Additional observations from a re-analysis of the deposited data

How the results depend on the processing

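The number of genes called over the whole table changed with the tool and with single libraries. It was 95 in the main analysis, 1395 with DESeq2, 9 without robust shrinkage, and 0 to 1187 when 1 library was left out. The log2 fold change of Asic4 ran from -1.96 to -1.58 over the 6 fits that leave out 1 library, in 2 of which it was called, and it was -1.71 without robust shrinkage, where it was not called. With DESeq2 it was also -1.71, and Asic4 was called. Asic2 ran from 0.47 to 0.72 in those 6 fits and was called in 1 of them, and it was 0.56 with DESeq2, where it was called. Asic1 ran from -0.19 to -0.10 and was called in none of the fits run. Asic3 ran from -0.16 to 0.26 and turned negative when ad libitum replicate 3 (-0.16) or fasting replicate 2 (-0.02) was left out. The cause of these changes was not tested. Same-numbered libraries of the 2 diets correlated at 0.21, -0.04 and -0.11 in their deviations from the diet means. Of 6 libraries, 2 correlated best with their own number. With so few libraries, these values cannot decide whether the replicate numbers pair the libraries. With the replicate number as a block, 285 genes were called. The log2 fold change was then -1.74 for Asic4 (edgeR adjusted p = 0.0248) and 0.57 for Asic2 (edgeR adjusted p = 0.054). The SE with the block was 0.13 for Asic4 and 0.09 for Asic2, against 0.20 and 0.15 in the main analysis. Of the list medians recomputed, 229 moved by less than the median SE of the list's genes and 13 by more.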
